A study of Mus musculus with 6 samples.

Results

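The integrated stress response and amino acid supply were read from 34 listed genes in rGAS6-stimulated macrophages. The list holds 10 stress transcription factors and regulators, 7 genes of serine, one-carbon and asparagine synthesis, 5 amino acid transporters and 12 tRNA synthetases. The first class is named for most of its genes and also holds Chac1, an enzyme, and Vldlr, a lipoprotein receptor. A probe set was taken for a gene when its array annotation gave exactly 1 symbol, equal to the gene's name or a synonym of it. This found 33 of the 34 genes on 34 probe sets, out of 30184 genes named in this way and 65956 probe sets tested. Ddit3 had a pair of probe sets, Mars was listed on the array as Mars1, and Aars was left out because its only probe set also carried Exosc6. All 33 lay above the median level of all probe sets, 4.32 on the log2 scale.

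In the integrated stress response, kinases that sense amino acid shortage, unfolded protein, haem lack or double-stranded RNA phosphorylate the translation factor eIF2. General translation falls while the mRNA of the transcription factor ATF4 is translated more. ATF4, often paired with C/EBP proteins, then switches on genes for amino acid synthesis, uptake and tRNA charging, and it also induces CHOP (Ddit3), a factor tied to cell death when the stress lasts. ATF3 is itself a member of the ATF/CREB family and a target of ATF4.

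The RNA came from bone marrow-derived macrophages (BMDMs) grown out of C57BL/6J marrow with 20 ng/ml M-CSF, the macrophage colony-stimulating factor. Every culture received rGAS6, a recombinant form of a protein that activates the receptor MerTK. According to the sample labels each was collected 24 h after hypoxia/reoxygenation (HR), in which cells are deprived of oxygen and then given it back. The sources used here do not say whether these 24 h include HR itself. The groups were 3 arrays labelled ATF3-CKO, from mice with floxed Atf3 alleles and a Cre at Lyz2, and 3 arrays labelled WT, from mice with the floxed alleles and no Cre. The mice were adult males according to the study's methods. Cre presence and loss of ATF3 cannot be told apart in this design, and a Cre at Lyz2 acts in neutrophils and monocytes as well as in macrophages. No array without rGAS6 or without HR was analysed here, so the values say how the groups differ after both and not what either does.

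The targeted gene went against its label. The Atf3 probe set read 9.20, 9.26 and 9.25 on the arrays labelled ATF3-CKO and 8.56, 8.46 and 8.38 on the WT arrays, a log2 difference of 0.77 (SE 0.08) with a limma adjusted p of 0.00538. Every direction below therefore rests on labels that this gene opposed. The deleted exons were not given in the sources used here, and signal from the remaining exons would be no check. Lyz2, which carries the Cre, averaged 19.42 ± 0.08 on the arrays labelled ATF3-CKO and 18.92 ± 0.21 on the WT arrays (SD, n = 3), with an adjusted p of 0.0817. Array medians lay between 4.22 and 4.42. Arrays of the same group correlated at 0.993 to 0.997 across probe sets and arrays of different groups at 0.988 to 0.992.

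The promoter letters that ATF4 and C/EBP partners are known to bind divided the genes into those with and those without a match. RefSeq promoter windows (GRCm38.p6, from 250 bases before to 50 after a start of transcription) were available for 26 of the 33 genes, and were not used here for Aldh1l2, Cars, Eif4ebp1, Lars, Nars, Slc7a5 and Wars. The composite C/EBP-ATF letters TGATGNAA, searched on both strands, occurred in 10 of these 26 genes (38.5%). Counted per window this was 10 of 30, against 3.97% of 32851 windows of the same length. By class the letters occurred in 4 of 9 stress factors and regulators, 1 of 6 synthesis genes, 1 of 4 transporters and 4 of 7 synthetases. A match describes the letters and is neither a binding site nor a cause. A window without the letters does not show that a gene lacks them, since bases outside the window were not searched. The list was built around ATF4 and amino acid stress genes, so an excess of these letters in it is not an independent result.

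The windows shown are those of the genes that rose (Nupr1 and Ddit3) and of Chac1, Asns, Gars and Tars. These last genes had the composite letters upstream of their start and did not pass the test. Vldlr was also such a gene, but its window is not shown. Each reads 5′ to 3′ on the strand of its gene and ends before the start of transcription. Capitals mark the composite letters on either strand, except in Nupr1 and Ddit3. In Nupr1 they mark the longer form TGATGCAAT, which contains the composite letters. In Ddit3 they mark TGANTCA, where N is any base, a looser pattern than the letters bound by AP-1 factors.
Nupr1, chr7:126625471-126625720, minus strand: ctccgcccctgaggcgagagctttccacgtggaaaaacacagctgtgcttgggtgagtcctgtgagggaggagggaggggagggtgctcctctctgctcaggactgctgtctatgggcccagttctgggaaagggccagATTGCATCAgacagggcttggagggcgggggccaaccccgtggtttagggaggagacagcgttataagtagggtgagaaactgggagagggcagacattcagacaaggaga
Ddit3, chr10:127290543-127290792, plus strand: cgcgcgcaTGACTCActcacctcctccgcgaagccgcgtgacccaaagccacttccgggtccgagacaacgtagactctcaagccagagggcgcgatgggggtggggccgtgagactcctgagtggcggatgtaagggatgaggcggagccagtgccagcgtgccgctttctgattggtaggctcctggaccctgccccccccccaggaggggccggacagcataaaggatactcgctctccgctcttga
Chac1, chr2:119351023-119351082, plus strand: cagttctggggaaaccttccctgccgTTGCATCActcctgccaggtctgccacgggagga
Asns, chr6:7693210-7693269, minus strand: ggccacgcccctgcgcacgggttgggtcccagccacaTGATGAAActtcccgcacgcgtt
Gars, chr6:55037941-55038000, plus strand: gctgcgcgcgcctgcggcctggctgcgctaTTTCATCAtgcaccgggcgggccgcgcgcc
Tars, chr15:11399659-11399718, minus strand: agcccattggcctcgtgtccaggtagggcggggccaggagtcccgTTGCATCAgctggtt

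In Nupr1 the 8 letters lay 110 to 103 bases before the start and belonged to the longer form TGATGCAAT, which overlaps the composite letters and occurred in 0.192% of all windows. Iars was the other listed gene with that longer form. The Ddit3 window held no composite letters and carried TGANTCA 242 to 236 bases before its start. TGANTCA was found in 2 of the 26 genes (Ddit3 and Slc7a1), or 2 of their 30 windows, against 7.81% of all windows. The cAMP response letters TGACGTCA were found in 1 gene (Ppp1r15a), or 1 of 30 windows, against 1.79%. The remaining composite matches lay in Vldlr, Trib3, Slc1a4, Yars and Iars. Those of Trib3, Yars and Iars lay after the start, that of Slc1a4 spanned it, and that of Vldlr lay 200 to 193 bases before it.

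Of the 33 genes, Ddit3 and Nupr1 were the 2 that rose on the arrays labelled ATF3-CKO, and 0 fell, in limma with Benjamini-Hochberg adjustment over all probe sets at 0.05. Over all probe sets, 1.17% were called higher and 1.68% lower. Among probe sets with 1 symbol above the median level, which are more like these genes, 2.03% were called higher and 4.47% lower. The 2 genes make up 6.06% of the list. With no adjustment, 8 of the 33 genes had a p under 0.05 and a positive difference, and 7 a negative one. The same was true of 11.6% and 6.2% of all probe sets, and of 13.7% and 14.5% of those with 1 symbol above the median level. The 3 arrays labelled ATF3-CKO lay wholly above the 3 WT arrays for 9 genes and wholly below them for 8, where 24% of all probe sets had such separate groups. A log2 difference of 1 or more was seen for 3 genes, Ddit3, Nupr1 and Slc38a2, against 2.02% of all probe sets. The shares of 24% and 2.02% were not computed for 1-symbol probe sets above the median level, so they are a less like comparison. The median difference over the 33 genes was 0.02, beside 0.06 over all probe sets and 0.02 over 1-symbol probe sets above the median level.

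**Figure D1:**
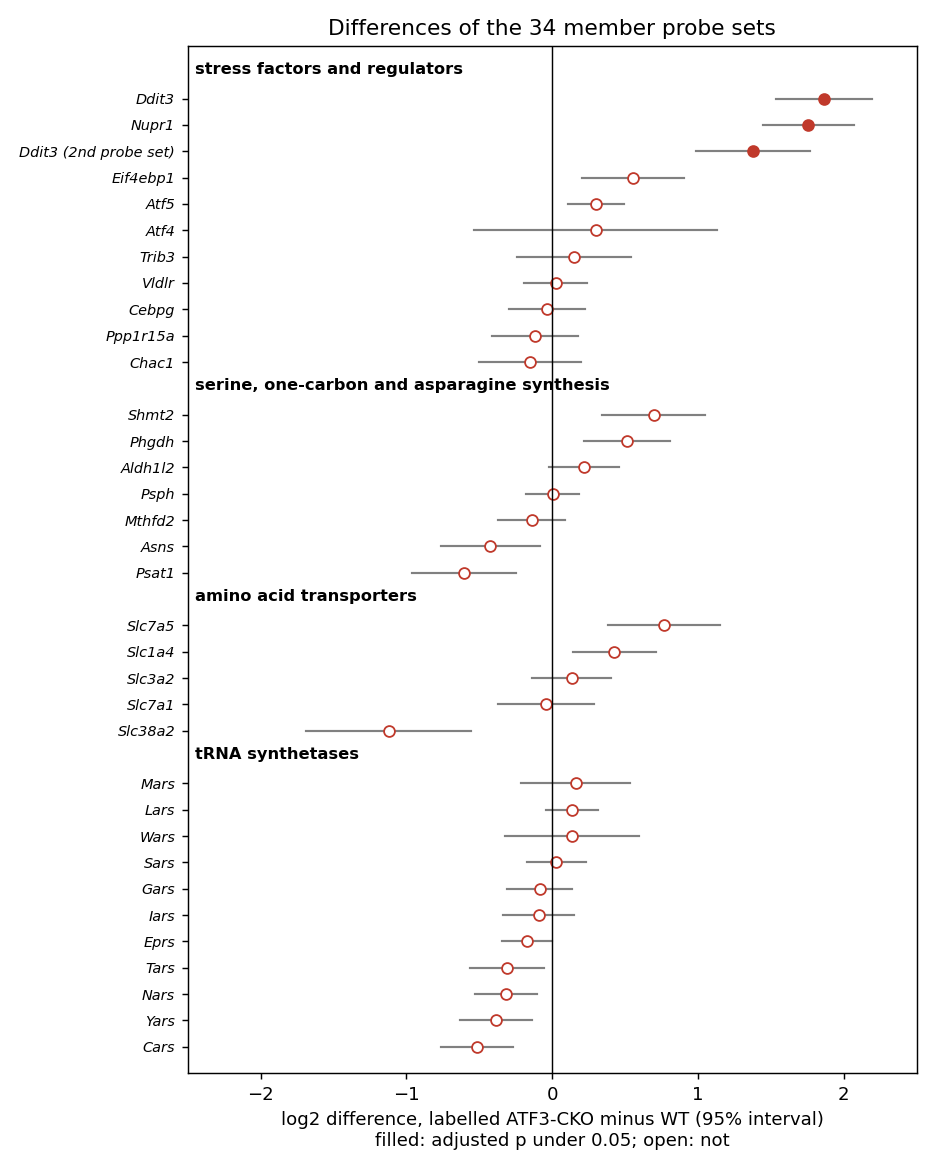
Log2 difference (arrays labelled ATF3-CKO minus WT, horizontal axis) of each of the 34 probe sets with its 95% interval, grouped by role. Filled points passed the adjusted threshold of 0.05: both Ddit3 probe sets, at 1.86 and 1.38, and Nupr1, at 1.76, and every other point is open.

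Some markers of other myeloid cells moved with the groups. Of 10 neutrophil markers 6 were lower on the arrays labelled ATF3-CKO (S100a8, S100a9, Ltf, Ngp, Camp and Lcn2), and their summed linear signal ran from 2790 to 14000 there, against 114000 to 183000 on the WT arrays. Elane, Mpo, Ly6g and Cebpe were at or below the median level. The summed monocyte markers ran from 530 to 1530 on the arrays labelled ATF3-CKO and from 15800 to 17200 on the WT arrays, with 1 of 4 lower (Ly6c2), 2 of 4 differences positive, and Ccr2 and Plac8 at or below the median level. The osteoclast markers ran from 852 to 977 on the arrays labelled ATF3-CKO and from 5170 to 7620 on the WT arrays, with 4 of 8 lower (Acp5, Ctsk, Mmp9 and Itgb3) and Calcr, Ocstamp, Dcstamp and Oscar at or below the median level. The dendritic cell markers ran from 4720 to 5150 on the arrays labelled ATF3-CKO and from 17500 to 35800 on the WT arrays, with 1 of 6 lower (Itgax), 4 of 6 differences positive, and Flt3, Zbtb46, Xcr1 and Clec9a at or below the median level. The gaps in the monocyte and dendritic cell sums thus each rested on 1 gene. Macrophage markers were high in both groups. Their sum ran from 1180000 to 1300000 on the arrays labelled ATF3-CKO and from 926000 to 1150000 on the WT arrays. Most of that sum came from Lyz2, which carries the Cre, and Cd68, so it says little about the other markers. Lyz2 differed by 0.49 and Cd68 by 0.03, and neither was called. Mertk and Cd14 were higher among the 8, by 1.36 (limma adjusted p 0.0499) and 1.08 (adjusted p 0.0225), and Itgam was lower. Itgam averaged 11.31 on the arrays labelled ATF3-CKO and 14.93 on the WT arrays, a difference of -3.63 (adjusted p 0.000128). Of the 8 macrophage markers, 3 positive and 2 negative had an unadjusted limma p under 0.05. The fibroblast and stromal sum ran from 801 to 2840 on the arrays labelled ATF3-CKO and from 732 to 1080 on the WT arrays, with 0 of 7 called (2 at an unadjusted p under 0.05). That of T, B and NK cell markers ran from 87.5 to 94.9 on the arrays labelled ATF3-CKO and from 80.8 to 83.9 on the WT arrays, with 0 of 6 called (1 at an unadjusted p under 0.05). These markers differ between the groups compared for all 4 classes of genes, and their part in the results was not tested. In bulk RNA, fewer cells of a type and less RNA per cell cannot be told apart.

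Both genes that passed the test with all 6 arrays belonged to the stress factors. Ddit3 encodes CHOP, a C/EBP-family factor that is induced through ATF4 and favours apoptosis under lasting stress. Its brighter probe set (TSUnmapped00000016.mm.1, which the array marks as an unmapped transcript) read 13.97, 14.05 and 13.96 on the arrays labelled ATF3-CKO and 12.28, 11.82 and 12.29 on the WT arrays. All 3 arrays labelled ATF3-CKO stood above all WT arrays, and they differed less among themselves (SD 0.05) than the WT arrays did (SD 0.27, n = 3 each). Ddit3 was 3.64-fold higher, a log2 difference of 1.86 (SE 0.14, 95% interval 1.54 to 2.19) with a limma adjusted p of 0.00133.

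The other Ddit3 probe set (TC1000001557.mm.1), which bears no such mark, read 13.30, 13.34 and 13.21 on the arrays labelled ATF3-CKO and 12.12, 11.51 and 12.09 on the WT arrays. The groups again lay apart, with WT replicate 2 the lowest array on both probe sets. The log2 difference was 1.38 (SE 0.17, interval 0.99 to 1.77), with a limma adjusted p of 0.00895. The call on this probe set was lost without ATF3-CKO replicate 2 (adjusted p 0.0522), whereas the brighter probe set passed in all 14 alternatives tried.

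Nupr1 encodes a small nuclear stress protein that lies downstream of ATF4. It read 8.30, 8.52 and 8.76 on the arrays labelled ATF3-CKO and 6.66, 6.72 and 6.91 on the WT arrays. The lowest array labelled ATF3-CKO was above the highest WT array by more than the spread within either group. Nupr1 was 3.38-fold higher, with a log2 difference of 1.76 (SE 0.13, interval 1.44 to 2.07) and a limma adjusted p of 0.00146, and the call held in all 14 alternatives.

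Atf4 itself did not pass the test. It read 10.93, 10.94 and 11.06 on the arrays labelled ATF3-CKO and 11.03, 9.76 and 11.23 on the WT arrays. The groups overlapped, and WT replicate 2 lay far below every other array. The difference of 0.30 (SE 0.35) had an interval of -0.53 to 1.13 and an adjusted p of 0.720. Without WT replicate 2 it was -0.16 (adjusted p 0.611), so its sign turned on that array. ATF4 is regulated largely through translation, which an array of RNA does not measure.

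**Figure D2:**
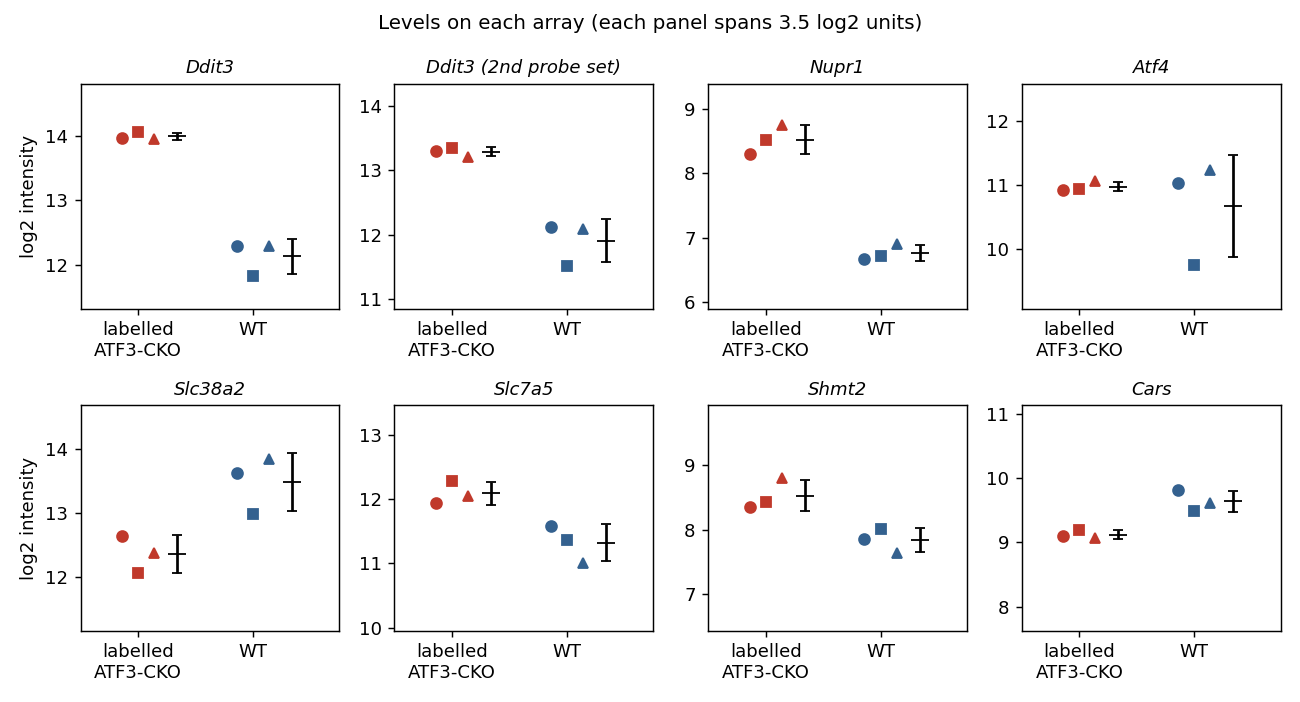
Log2 intensity of Ddit3 (both probe sets), Nupr1, Atf4, Slc38a2, Slc7a5, Shmt2 and Cars on each of the 6 arrays, the arrays labelled ATF3-CKO left and WT right, with the mean and SD of 3 arrays beside the points (circle, replicate 1; square, replicate 2; triangle, replicate 3). For Ddit3 and Nupr1 the groups stand well apart, and for Atf4 WT replicate 2, at 9.76, stands below the other 5 arrays.

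Atf5, an ATF4-related factor whose own mRNA is also translated under eIF2 phosphorylation, read 7.38, 7.49 and 7.47 on the arrays labelled ATF3-CKO and 7.16, 7.06 and 7.22 on the WT arrays. The groups lay apart, but the difference of 0.30 (interval 0.11 to 0.49) had an adjusted p of 0.110. Eif4ebp1, the translation repressor 4E-BP1, read 11.49, 11.48 and 11.65 on the arrays labelled ATF3-CKO and 11.22, 11.07 and 10.67 on the WT arrays. Its groups lay apart as well, with a difference of 0.56 (interval 0.21 to 0.90) and an adjusted p of 0.105.

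The other genes of this class overlapped between the groups. Trib3, a pseudokinase that is induced by ATF4 and CHOP and restrains them, read 7.17, 6.91 and 7.08 on the arrays labelled ATF3-CKO and 7.14, 6.54 and 7.03 on the WT arrays, a difference of 0.15 (interval -0.24 to 0.54, adjusted p 0.699). Chac1, a glutathione-degrading enzyme and another ATF4 and CHOP target, read 4.96, 4.97 and 5.07 on the arrays labelled ATF3-CKO and 5.34, 4.81 and 5.30 on the WT arrays, a difference of -0.15 (interval -0.50 to 0.20, adjusted p 0.667). Neither gene stood with Ddit3 among the calls. Ppp1r15a (GADD34), which directs a phosphatase to eIF2 and so ends the response, read 6.14, 6.14 and 6.22 on the arrays labelled ATF3-CKO and 6.44, 6.01 and 6.40 on the WT arrays, a difference of -0.12 (interval -0.41 to 0.18, adjusted p 0.685). Cebpg, a dimer partner of ATF4, differed by -0.04 (interval -0.30 to 0.22, adjusted p 0.897), and Vldlr, a lipoprotein receptor, by 0.02 (interval -0.19 to 0.24, adjusted p 0.921).

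WT replicate 2 was the lowest WT array for 7 of the 10 stress factors and regulators (Ddit3, Atf4, Atf5, Cebpg, Trib3, Chac1 and Ppp1r15a), but for 3 of 7 synthesis genes, 1 of 5 transporters and 4 of 11 synthetases. Taken relative to each gene's WT mean, the median of the 10 genes was 0.24, 0.18 and 0.25 on the arrays labelled ATF3-CKO and 0.15, -0.22 and 0.12 on the WT arrays. The median difference of this class was 0.22 with all arrays and -0.01 without WT replicate 2. Ddit3 and Nupr1 were nevertheless higher without that array, by 1.71 (limma adjusted p 0.000761) and 1.74 (adjusted p 0.00457).

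**Figure D3:**
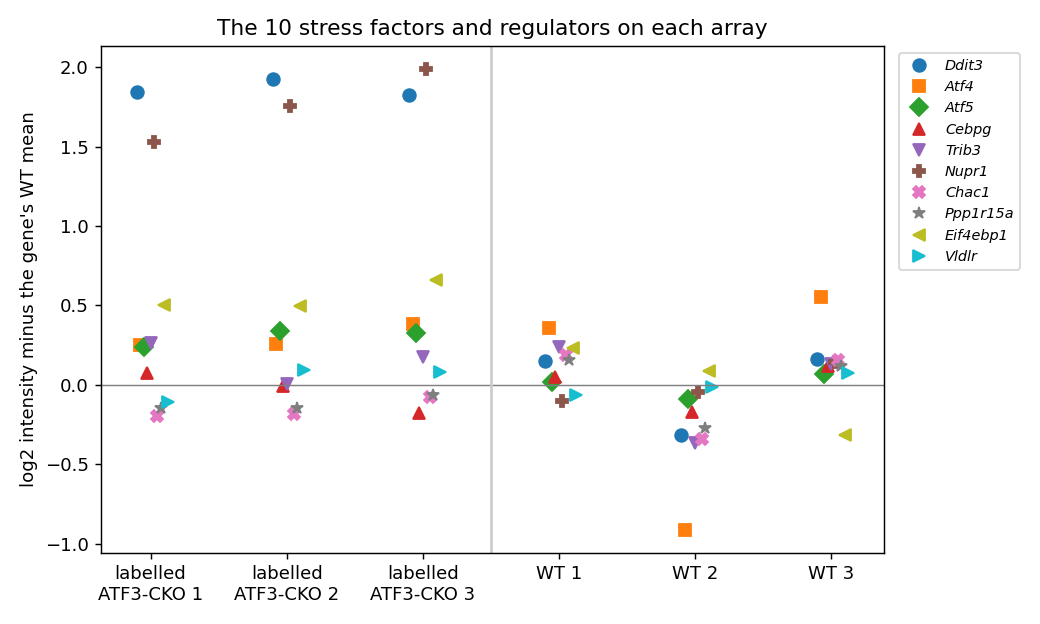
Log2 intensity of the 10 stress factors and regulators minus each gene's WT mean (vertical axis) on each of the 6 arrays, arrays labelled ATF3-CKO left of the line and WT right of it, with Ddit3 by its brighter probe set. Ddit3 and Nupr1 stand above the other 8 genes on the arrays labelled ATF3-CKO, and most genes sit lowest among the WT arrays on WT replicate 2.

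None of the 7 genes of serine, one-carbon and asparagine synthesis passed the test in limma (0 higher and 0 lower, where 2 and 2 had an unadjusted p under 0.05), and their differences ran from -0.60 to 0.70 around a median of 0.0027. The consecutive enzymes of serine synthesis had differences of opposite sign. Phgdh, which takes the entry step from a glycolytic intermediate, read 8.66, 8.94 and 9.12 on the arrays labelled ATF3-CKO and 8.36, 8.48 and 8.34 on the WT arrays, a difference of 0.52 (interval 0.22 to 0.81, adjusted p 0.0841). Psat1, the aminotransferase of the next step, read 8.34, 8.23 and 8.30 on the arrays labelled ATF3-CKO and 8.72, 9.24 and 8.71 on the WT arrays, a difference of -0.60 (interval -0.96 to -0.25, adjusted p 0.0922). The groups lay apart for both enzymes, in opposite directions. Psph, the phosphatase that completes serine, read 5.70, 5.84 and 5.76 on the arrays labelled ATF3-CKO and 5.79, 5.74 and 5.76 on the WT arrays and overlapped fully.

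Shmt2, the mitochondrial enzyme that passes a carbon unit from serine to folate, read 8.36, 8.42 and 8.81 on the arrays labelled ATF3-CKO and 7.85, 8.01 and 7.64 on the WT arrays. The groups lay apart, and the difference of 0.70 (interval 0.34 to 1.05) had an adjusted p of 0.0623. The next mitochondrial folate enzymes overlapped between groups: Mthfd2 differed by -0.14 (interval -0.37 to 0.09, adjusted p 0.513) and Aldh1l2 by 0.22 (interval -0.02 to 0.46, adjusted p 0.328). Asns, the asparagine synthetase and a classical ATF4 target with the composite letters 23 to 16 bases before its start, read 13.27, 12.95 and 13.11 on the arrays labelled ATF3-CKO and 13.81, 13.45 and 13.34 on the WT arrays. Its groups lay apart with the arrays labelled ATF3-CKO below, opposite in sign to Ddit3, and the difference of -0.42 (interval -0.76 to -0.09) had an adjusted p of 0.184.

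Among the 5 transporters 0 were called in either direction by limma, where an unadjusted p under 0.05 was reached by 2 positive and 1 negative, and with a median difference of 0.13, which was 0.018 without WT replicate 3 and -0.01 with quantile normalization. The largest differences had opposite signs. Slc38a2 (SNAT2), a sodium-coupled carrier of small neutral amino acids that cells induce when amino acids run short, read 12.64, 12.06 and 12.38 on the arrays labelled ATF3-CKO and 13.62, 12.99 and 13.85 on the WT arrays. All WT arrays were above all arrays labelled ATF3-CKO, and the spread within each group was wide, so that the difference of -1.12 (SE 0.24, interval -1.69 to -0.56) had an adjusted p of 0.0611. Without WT replicate 2 it was -1.37 and passed (adjusted p 0.0156).

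Slc7a5 (LAT1), the light chain of an exchanger of large neutral amino acids, read 11.93, 12.28 and 12.05 on the arrays labelled ATF3-CKO and 11.59, 11.36 and 11.01 on the WT arrays. Its groups lay apart in the other direction, with a difference of 0.77 (interval 0.39 to 1.15) and an adjusted p of 0.0591. Its heavy chain partner Slc3a2 read 16.97, 16.82 and 16.94 on the arrays labelled ATF3-CKO and 16.90, 16.87 and 16.55 on the WT arrays, and these overlapped (difference 0.13, interval -0.14 to 0.41, adjusted p 0.620). Slc1a4, a carrier of alanine, serine and cysteine, read 5.76, 5.71 and 5.98 on the arrays labelled ATF3-CKO and 5.38, 5.58 and 5.22 on the WT arrays, a difference of 0.43 (interval 0.14 to 0.71, adjusted p 0.125). Slc7a1, the carrier of arginine and lysine, overlapped and differed by -0.04 (interval -0.37 to 0.29, adjusted p 0.906).

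The 11 measured tRNA synthetases, which attach amino acids to their tRNAs, differed least by their median size. The sizes of their differences had a median of 0.16, beside 0.17 for 1-symbol probe sets above the median level. That median was 0.22 for the stress factors and regulators, 0.42 for the synthesis genes and 0.43 for the transporters. Their median difference was -0.09, with 7 of 11 negative, and 0 passed in either direction in limma, where an unadjusted p under 0.05 was reached by 0 positive and 4 negative. Cars, the cysteinyl enzyme, had the largest difference among them: it read 9.11, 9.19 and 9.07 on the arrays labelled ATF3-CKO and 9.82, 9.49 and 9.61 on the WT arrays. The groups lay apart, and the difference of -0.52 (SE 0.10, interval -0.76 to -0.27) had an adjusted p of 0.0538, just outside the threshold, and 0.0430 without WT replicate 2.

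Yars (tyrosyl) read 8.12, 8.26 and 8.11 on the arrays labelled ATF3-CKO and 8.72, 8.51 and 8.42 on the WT arrays, a difference of -0.39 (adjusted p 0.109). Nars (asparaginyl) read 14.31, 14.44 and 14.25 on the arrays labelled ATF3-CKO and 14.56, 14.73 and 14.66 on the WT arrays, a difference of -0.32 (adjusted p 0.126). Tars (threonyl) read 11.34, 11.42 and 11.49 on the arrays labelled ATF3-CKO and 11.65, 11.60 and 11.92 on the WT arrays, a difference of -0.31 (adjusted p 0.195). In all 3 the arrays labelled ATF3-CKO lay below the WT arrays. Eprs, which charges both glutamate and proline tRNAs, also lay apart, with a difference of -0.17 (adjusted p 0.285), and Lars (leucyl) lay apart in the other direction, with a difference of 0.14 (adjusted p 0.412). The groups overlapped for Sars (0.03), Gars (-0.09), Wars (0.14), Mars (0.16) and Iars (-0.09), with adjusted p-values of 0.662 to 0.895.

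Genes with and without the composite letters in their windows overlapped in their differences. The 10 genes that carried them had differences from -0.42 (Asns) to 1.76 (Nupr1) with a median of -0.09 and 1 call. The 16 genes whose windows lacked them ran from -1.12 (Slc38a2) to 1.86 (Ddit3) with a median of 0.02 and 1 call. Bases outside the windows were not searched, so Ddit3, Slc38a2 and the others may carry the letters elsewhere. Chac1, Gars and Tars, whose windows are printed above with Nupr1, had differences of -0.15, -0.09 and -0.31.

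**Figure D4:**
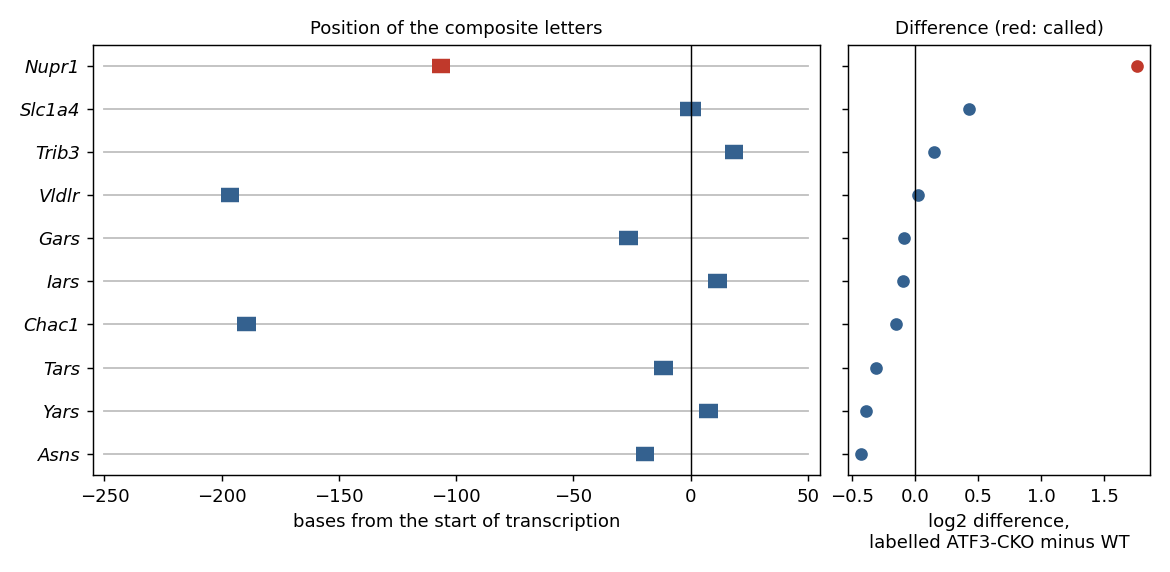
Position of the composite letters (left, in bases from the start of transcription, which is at the vertical line) and log2 difference, arrays labelled ATF3-CKO minus WT (right), for the 10 genes that carry them. Nupr1, in red, is the 1 called gene, at 1.76, and the other 9 lie between -0.42 and 0.43.

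Among further genes of the pathway, taken in 6 lists, limma called 3 higher and 5 lower. For scale, 2.03% of 1-symbol probe sets above the median level were called higher and 4.47% lower. Over all probe sets these shares were 1.17% and 1.68%. An unadjusted p under 0.05 was reached by 13.7% (positive) and 14.5% (negative) of the 1-symbol probe sets above the median level. Of 13 genes that set eIF2 phosphorylation or its effect, 2 positive and 5 negative had an unadjusted limma p under 0.05. After adjustment 0 were higher and 1 lower, with a median difference of -0.09. The lower gene was Ppp1r15b (CReP), the constitutive partner of the eIF2 phosphatase. It averaged 10.01 ± 0.05 on the arrays labelled ATF3-CKO and 10.58 ± 0.19 on the WT arrays (SD, n = 3), a difference of -0.57 with a limma adjusted p of 0.0486, which passed in 6 of 14 alternatives.

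Of 18 other genes linked to ATF4 and CHOP, 2 positive and 4 negative had an unadjusted limma p under 0.05. After adjustment 1 was higher (Atf3) and 2 were lower, with a median difference of -0.05. Bcl2l11 encodes BIM, a pro-apoptotic BCL2 protein that CHOP is known to induce. It read 10.48, 10.16 and 10.26 on the arrays labelled ATF3-CKO and 11.39, 11.58 and 11.27 on the WT arrays, 2.16-fold lower on the arrays labelled ATF3-CKO (difference -1.11, SE 0.12, limma adjusted p 0.00580). It therefore moved opposite to Ddit3. Pck2, mitochondrial phosphoenolpyruvate carboxykinase and an ATF4 target, was lower by a difference of -0.55 (adjusted p 0.0340) and passed in 7 of 14 alternatives. Of 15 further serine, folate and asparagine genes and 16 mitochondrial synthetases, 0 were called in either direction by limma. An unadjusted p under 0.05 was reached by 1 positive and 2 negative genes of the serine, folate and asparagine list and by 0 synthetases.

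Of 20 other amino acid transporters, 5 positive and 2 negative had an unadjusted limma p under 0.05. After adjustment 2 were higher and 1 lower, with a median difference of 0.07. Slc7a8 (LAT2), another light chain that pairs with Slc3a2, read 15.41, 15.10 and 15.15 on the arrays labelled ATF3-CKO and 13.35, 13.98 and 13.24 on the WT arrays. It was 3.24-fold higher, with a difference of 1.70 (SE 0.20) and a limma adjusted p of 0.00814. Slc7a11 (xCT), the cystine and glutamate exchanger and also a Slc3a2 partner, was higher by 0.97 (adjusted p 0.0326, passing in 9 of 14 alternatives). Slc16a10 (TAT1), a carrier of aromatic amino acids, read 11.24, 10.96 and 10.81 on the arrays labelled ATF3-CKO and 12.56, 12.31 and 12.47 on the WT arrays, 2.72-fold lower there (difference -1.44, SE 0.13, adjusted p 0.00297). The transporters that passed thus lay outside the 5 listed ones and pointed in both directions.

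Of 10 other cytosolic synthetases and their partners, 1 positive and 2 negative had an unadjusted limma p under 0.05. After adjustment 0 were higher and 1 lower. Rars (arginyl) read 14.14, 13.92 and 13.85 on the arrays labelled ATF3-CKO and 14.90, 14.68 and 14.83 on the WT arrays. Its difference of -0.84 (SE 0.11) had a limma adjusted p of 0.0112 and passed in 11 of 14 alternatives.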

How the data were processed

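Total RNA of BMDMs was profiled on Affymetrix Clariom D arrays (the type named in the labels), 6 in all, with 3 biological replicates in each group. The authors made the deposited log2 values from the scans by robust multichip averaging (RMA) in Affymetrix Expression Console, with global scaling according to the study's methods. RMA corrects background, makes arrays more alike in distribution and summarises the probes of a set, so a shift common to most genes would be reduced. A small shift remained in the deposited values: array medians lay between 4.22 and 4.42, and the median difference over all probe sets was 0.06. The version of Expression Console, the build and the annotation were not given in the sources used here. Of 72688 probe sets in the table, 6732 control probe sets were left out, and 30646 of the 65956 tested had 1 symbol. The median of 23 background control probe sets was 2.77. Precision is limited by the number of arrays, since there are no reads to count.

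The deposited log2 values entered a two-sided limma fit (version 3.58.1, lmFit then eBayes, R 4.3.3) of ATF3-CKO minus WT, with Benjamini-Hochberg adjustment over all 65956 probe sets. All adjusted p-values are from this fit, a gene called higher or lower has one under 0.05, and intervals are at 95%. An exact permutation test of 3 against 3 arrays cannot go below 0.1 and was not used. Levels of different probe sets were not compared, except as parts of the marker sums. Where a gene had several probe sets, the one of highest mean level stood for it. Linear signals of marker genes were summed per array. The fit was tested on simulated data.

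The members and the lists were chosen with earlier results of these data known. Named are all members, every called gene of the pathway lists, Atf3 and Lyz2, and the called markers. Alternatives were quantile normalization, median-centring, a filter at the median level, a filter on 1-symbol probe sets, the replicate number as a block, trended and robust eBayes, array weights, the mean of a gene's probe sets, and leaving out each array.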

Additional observations from a re-analysis of the deposited data

How the results depend on the processing

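Ddit3 (brighter probe set) and Nupr1 passed the threshold in all 14 alternatives, with differences of 1.62 to 1.95 and 1.64 to 1.88 and adjusted p-values of 0.000434 to 0.0144 and 0.000428 to 0.0147 from limma. Of the 34 member probe sets 24 kept their sign in every alternative. The count of members higher was 2, and it was 4 with the filter at the median level and with the 1-symbol filter (Shmt2 and Slc7a5 added, both filters testing fewer probe sets) and 7 with array weights (Atf5, Phgdh and Slc1a4 besides). Leaving out an array gave 2 to 3, the third being Phgdh without ATF3-CKO replicate 1. The count of members lower was 0, and it was 1 with quantile normalization (Slc38a2), median-centring (Cars), the 1-symbol filter (Cars) and the replicate block (Slc38a2), 2 with the filter at the median level (Cars and Slc38a2), 4 with array weights (Asns and Yars besides) and 0 to 2 when an array was left out, the 2 being Cars and Slc38a2 without WT replicate 2. Other pathway genes called lower numbered 5, against 3 with the replicate block and with trended, robust eBayes, 9 with array weights and 2 to 6 when an array was left out. That count was 2 without WT replicate 1 and likewise without ATF3-CKO replicate 2 or ATF3-CKO replicate 3, and it was 3 without ATF3-CKO replicate 1. Bcl2l11, Slc16a10, Slc7a8 and Atf3 passed in all 14 alternatives. The alternatives for pathway genes and for the count at a fold of 2 were chosen after seeing the data.

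The median difference of stress factors and regulators (0.22) ran from -0.0076 to 0.29 when an array was left out, the lowest without WT replicate 2. That of the synthesis genes (0.0027) was -0.065 with quantile normalization and -0.082 with median-centring. That of the transporters (0.13) was -0.01 with quantile normalization and 0.018 to 0.20 when an array was left out, the lowest without WT replicate 3. That of the synthetases (-0.09) was -0.17 with quantile normalization, -0.18 with median-centring and -0.17 to -0.042 when an array was left out, the lowest without ATF3-CKO replicate 1. The causes were not tested. Same-numbered arrays did not deviate together across probe sets (correlations 0.032, -0.088 and -0.074). With so few arrays this cannot show whether same-numbered samples were handled together, and the labels do not say. With 3 arrays a group, a difference whose interval includes 0 cannot be told from none.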
